A study of Homo sapiens with 6 samples.

Results

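The 10 genes described here belong to the small RNA silencing machinery of MDA-MB-453 cells. They are the 4 Argonaute genes *AGO1*, *AGO2*, *AGO3* and *AGO4*, the RNase III genes *DICER1* and *DROSHA*, the genes of the Dicer partners TRBP and PACT (*TARBP2* and *PRKRA*) and the GW182 genes *TNRC6A* and *TNRC6B*. Members were found by symbol, and all 10 were found among the 22807 genes of the table. All 10 also passed the filter on low values, a mean of at least 1 over the libraries, which left 12862 genes to test. MDA-MB-453 is an established HER2+ breast cancer cell line. RNA-seq libraries were made from cells transfected with scrambled control siRNA (SCR, n = 3, genotype labelled WT) and with siRNA against *DUSP6*, a phosphatase gene of the MAPK pathway (DUSP6 KD, n = 3). The comparison asks how gene expression differs when *DUSP6* is depleted. Both groups were transfected with siRNA, so every library received a small RNA, and no untransfected library was analysed here. The study describes 3 siRNAs against *DUSP6* and 3 scrambled ones, and which of them went into which library is not given in the sources used here. Libraries of a group may thus differ in their siRNA, and the p-values measure the spread between these libraries, since the labels do not say that they came from separate cultures.

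In the miRNA pathway, Drosha with its partner *DGCR8* cuts hairpins out of nuclear transcripts, exportin-5 carries the hairpins to the cytoplasm, and Dicer, held by TRBP or PACT, cuts them to duplexes. A strand of the duplex is loaded into an Argonaute protein, where bases 2 to 8 of the miRNA, its seed, pair with target mRNAs. A GW182 protein bound to the Argonaute then recruits deadenylases and decapping enzymes. A synthetic siRNA enters the same path at the loading step, and Ago2 is the Argonaute known for cutting a fully paired target.

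The targeted gene was lower in the cells that received its siRNA. *DUSP6* stood at 209, 110 and 114 in SCR replicates 1 to 3 and at 39.4, 24.5 and 35.2 in DUSP6 KD replicates 1 to 3, where each value is CPM, the reads of a gene relative to all assigned reads of its library, after TMM scaling between libraries. The mean fell from 144 ± 55.7 to 33.0 ± 7.68 (SD, n = 3 each), with a log2 fold change of -2.05 (SE 0.25, adjusted p = 3.09e-04, limma). Throughout, a log2 fold change is DUSP6 KD minus SCR on the log2(value + 1) scale, which understates changes of low genes, and a gene is called higher or lower at an adjusted p under 0.05. The libraries held 45546981 to 85729785 assigned reads, so 1 read was worth 0.0121 to 0.0202. The 7 markers of HER2+ luminal epithelium reported here stood at 214 to 1068 in the 6 libraries. Of these, 6 (*ERBB2*, *KRT8*, *KRT18*, *KRT19*, *FOXA1* and *GATA3*) were called lower with DUSP6 KD and 1 (*EPCAM*) was not called. *KRT19* stood at 618 to 988 in SCR and 222 to 255 in DUSP6 KD, and *ERBB2* at 882 to 1068 and 457 to 520. The leukocyte marker *PTPRC* was at most 0.0809 and the endothelial marker *PECAM1* at most 0.253. Of the fibroblast collagens, *COL1A2* was at most 0.134 while *COL1A1* stood at 80.7 to 105.1 in SCR and 162 to 192 in DUSP6 KD and was called higher (log2 fold change 0.90, adjusted p = 4.21e-04, limma). The part of these marker differences in the other results was not tested. In bulk RNA, fewer cells of a type and less RNA per cell cannot be told apart.

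Of the 10 machinery genes, 2 were called higher with DUSP6 KD (*AGO4* and *TARBP2*), 4 were called lower (*AGO2*, *DROSHA*, *TNRC6A* and *TNRC6B*) and 4 were not called (*AGO1*, *AGO3*, *DICER1* and *PRKRA*). Over all genes tested, 19.7% were called higher and 24.7% lower. Thus 2 of 10 higher lay at the background share and 4 of 10 lower lay above it, on few genes. Without DUSP6 KD replicate 1 or 3, 2 of 10 were called lower, against 2454 and 2306 of the 12862 genes. The SCR and DUSP6 KD libraries did not overlap in 8 of the 10, against 57.8% of all genes tested. For each of those 8 the exact permutation test gave p = 0.1 (two-sided), the smallest that 3 against 3 libraries can give, and it gave 0.9 for *AGO1* and 0.4 for *DICER1*. The median log2 fold change was -0.05 over the 10 genes and -0.01 over all genes tested. The genes thus moved in both directions, and each family is described in turn.

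**Figure D1:**
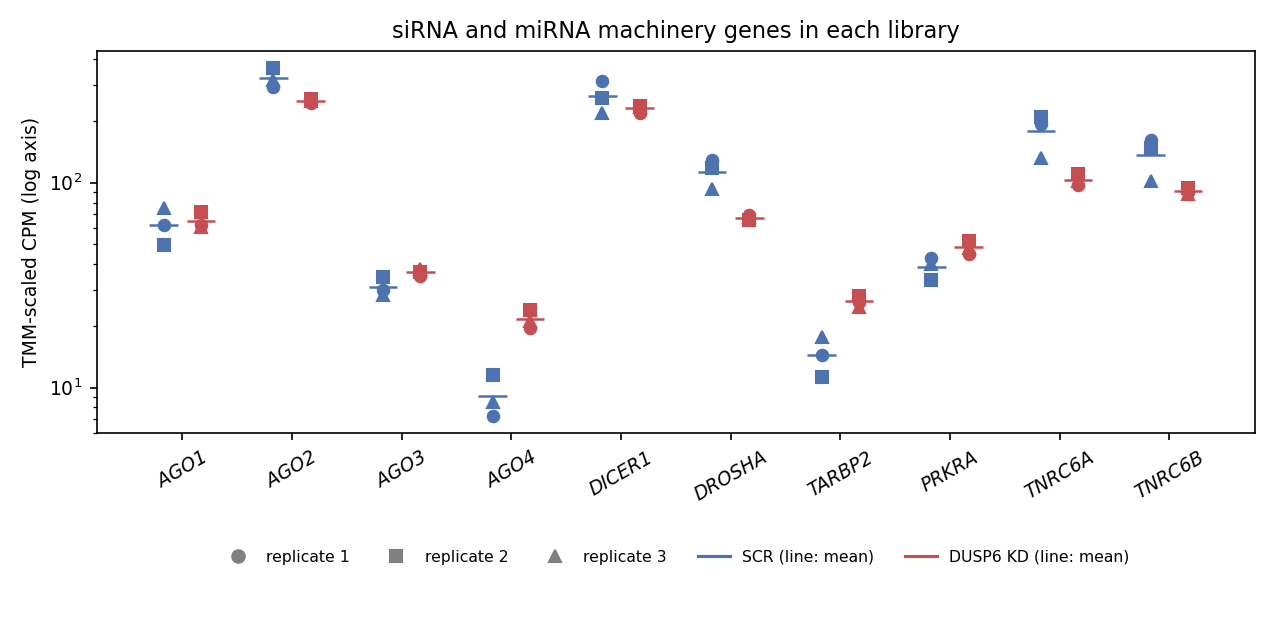
Value of each of the 10 machinery genes in each library, in TMM-scaled CPM on a log axis, with SCR in blue, DUSP6 KD in red, a symbol for each replicate and a line at the group mean. The red points of AGO4 and TARBP2 lie above the blue ones, those of DROSHA, TNRC6A and TNRC6B below, and the red points of each gene lie closer together than the blue ones.

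The Argonaute genes code for the proteins that hold the guide strand. *AGO2*, the slicing Argonaute, stood at 293, 363 and 318 in SCR and at 245, 256 and 249.7 in DUSP6 KD. Every DUSP6 KD library lay below every SCR library. The mean fell from 324 ± 35.1 to 250.3 ± 5.97 (SD, n = 3 each), a log2 fold change of -0.37 (SE 0.10, 95% confidence interval -0.59 to -0.15, adjusted p = 0.0148, limma). The call of *AGO2* was lost without DUSP6 KD replicate 1 (adjusted p = 0.0636, limma), without DUSP6 KD replicate 3 (adjusted p = 0.0606, limma) and after quantile normalization, where the log2 fold change was -0.13 (adjusted p = 0.284, limma).

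*AGO4* had the largest fold change of the 4 Argonaute genes. It stood at 7.27, 11.6 and 8.53 in SCR and at 19.5, 23.9 and 21.0 in DUSP6 KD, with a wide gap between the groups. Its mean rose from 9.13 ± 2.21 to 21.5 ± 2.24 (SD, n = 3 each), 2.36 times the SCR mean. The log2 fold change was 1.17 (SE 0.16, 95% confidence interval 0.81 to 1.53, adjusted p = 5.63e-04, limma), and *AGO4* was called with each of the 6 libraries left out in turn. The *AGO4* values rested on 489 to 1957 reads per library.

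*AGO1* and *AGO3*, which like *AGO4* code for Argonautes best known for repression without cutting, were not called. *AGO1* stood at 62.1, 49.8 and 74.8 in SCR and at 62.0, 72.2 and 60.5 in DUSP6 KD, and the groups overlapped in full. Its log2 fold change was 0.07, with a 95% confidence interval of -0.26 to 0.41 (adjusted p = 0.702, limma). *AGO3* stood at 30.05, 34.6 and 28.2 in SCR and at 35.1, 36.6 and 37.7 in DUSP6 KD. The *AGO3* groups did not overlap, but the nearest libraries, SCR replicate 2 and DUSP6 KD replicate 1, were close. Its log2 fold change was 0.23 (SE 0.10, adjusted p = 0.0959, limma). It was called higher without SCR replicate 2 (0.32, adjusted p = 0.0284, limma) and with a trend on transcript length removed (0.29, adjusted p = 0.0277, limma).

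*AGO4*, *AGO1* and *AGO3* are neighbours on chromosome 1, all on the plus strand. On GRCh38 the RefSeq annotation places *AGO4* at chr1:35807636-35857890, *AGO1* at chr1:35869761-35930532 and *AGO3* at chr1:35930718-36072500. The gap is 11870 bases between *AGO4* and *AGO1* and 185 bases between *AGO1* and *AGO3*. *AGO2* lies apart, on chromosome 8. The 3 neighbours gave log2 fold changes of 1.17, 0.07 and 0.23 in that order, so the gene at the upstream end of the cluster was called and the other two were not.

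The makeup of the Argonaute transcript pool is given as shares. They restate the values above and depend on each other, since a rise in the share of any gene lowers the others. To set the genes side by side, each value was divided by the length of the canonical transcript, and each gene was taken as a share of the 4-gene sum in its library. The share of *AGO2* was 74.0%, 78.1% and 73.0% in SCR and 65.1%, 62.8% and 65.0% in DUSP6 KD, a mean of 75.004 ± 2.69% against 64.3 ± 1.302% (SD, n = 3 each). The share of *AGO4* was 4.21 ± 0.700% in SCR and 11.1 ± 0.665% in DUSP6 KD. That of *AGO3* was 5.32 ± 0.447% and 6.96 ± 0.317%, and none of these 3 shares overlapped between the groups. Of all genes tested, 57.8% did not overlap as single values, and shares in other families were not counted. The exact permutation test gave p = 0.1 for each, again the smallest possible. The share of *AGO1* was 15.5 ± 3.60% and 17.7 ± 1.04% and overlapped. The summed Argonaute level per kilobase was 29.6 ± 2.34 in SCR and 26.7 ± 1.17 in DUSP6 KD, with overlap between the groups (exact permutation p = 0.2). *AGO2* remained the largest share in all 6 libraries.

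**Figure D2:**
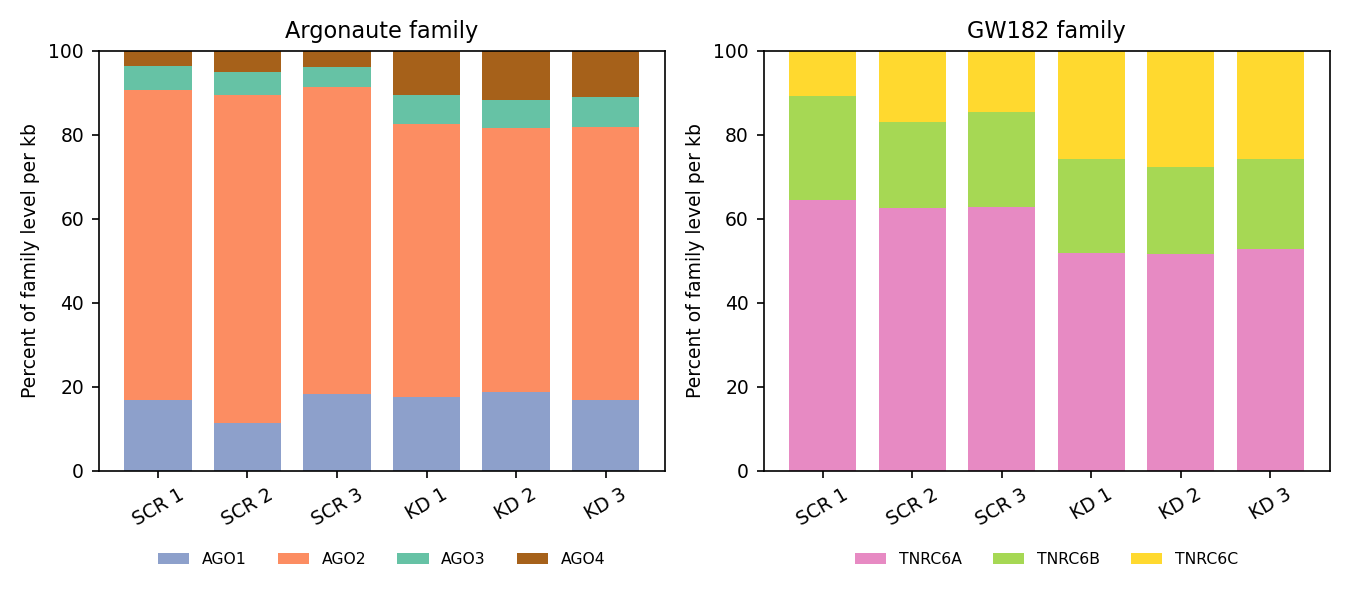
Share of each gene in the summed level per kilobase of its family, in percent, for each library, with the Argonaute genes on the left and the GW182 genes on the right. The AGO2 share is smaller in the DUSP6 KD bars (62.8% to 65.1%) than in the SCR bars (73.0% to 78.1%), and the TNRC6C share is larger (25.9% to 27.7% against 10.8% to 17.1%).

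Of the RNase III genes, *DROSHA* was called lower and *DICER1* was not called. Both log2 fold changes were negative, and the 2 genes were set against each other only by the ratio below. *DROSHA*, the nuclear enzyme of the first cut, stood at 129, 118 and 93.1 in SCR and at 69.5, 65.6 and 67.7 in DUSP6 KD. All DUSP6 KD libraries were lower than all SCR libraries, and SCR replicate 3 lay nearest to them. The mean fell from 113 ± 18.4 to 67.6 ± 1.93 (SD, n = 3 each), with a log2 fold change of -0.72 (SE 0.12, 95% confidence interval -0.9996 to -0.4487, adjusted p = 0.00161, limma). *DROSHA* was called with each library left out in turn and under each setting tried.

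*DICER1*, the cytoplasmic enzyme of the second cut, was not called. It stood at 315, 258 and 218 in SCR and at 219, 237 and 235 in DUSP6 KD, so SCR replicate 3 lay below every DUSP6 KD library. The log2 fold change was -0.18 (SE 0.13, 95% confidence interval -0.47 to 0.12, adjusted p = 0.293, limma). Without SCR replicate 3 it was called lower (-0.31, adjusted p = 0.0330, limma), and after quantile normalization its direction turned (0.03, adjusted p = 0.842, limma). The ratio of the *DICER1* value to the *DROSHA* value was 2.32 ± 0.129 in SCR and 3.41 ± 0.234 in DUSP6 KD, without overlap (exact permutation p = 0.1, the smallest possible). These ratios of values are not scaled by length and are compared only between the groups. They restate the values of the single genes, and how many ratios of other genes lack overlap was not counted. Further ratios were computed. Those of *AGO2* to *AGO4*, *DICER1* to *TARBP2* and *TNRC6A* to *TNRC6C* did not overlap between the groups. Those of *AGO2* to *TNRC6A* and of *AGO2* to *TNRC6B* did (exact permutation p = 0.2 and 0.7).

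The Drosha partner *DGCR8* and the exporter *XPO5* were not called. *DGCR8*, which holds the hairpin for Drosha, stood at 73.6, 82.4 and 89.0 in SCR and at 94.4, 83.8 and 94.97 in DUSP6 KD, with overlap (log2 fold change 0.16, SE 0.10, adjusted p = 0.234, limma). The ratio of the *DROSHA* value to the *DGCR8* value was 1.41 ± 0.354 in SCR and 0.744 ± 0.0359 in DUSP6 KD (SD, n = 3 each). It did not overlap between the groups (exact permutation p = 0.1), and it too restates the single values. *XPO5*, the gene of exportin-5, stood at 125, 105.3 and 139 in SCR and at 141, 142 and 148 in DUSP6 KD. Its log2 fold change was 0.23 (SE 0.11, adjusted p = 0.113, limma). *XPO5* was called higher without SCR replicate 3 (0.33, adjusted p = 0.0186, limma) and after quantile normalization (0.38, adjusted p = 0.0176, limma). Of its exon sequence, 6.54% overlaps *POLR1C* on the opposite strand, and the counting ignored strand.

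Both Dicer partners stood higher with DUSP6 KD, 1 of them past the threshold. *TARBP2*, whose protein TRBP steadies Dicer and was named for binding viral RNA, stood at 14.5, 11.3 and 17.7 in SCR and at 26.0, 28.1 and 24.9 in DUSP6 KD. The groups were well apart. The mean rose from 14.5 ± 3.20 to 26.3 ± 1.63 (SD, n = 3 each), 1.82 times the SCR mean, with a log2 fold change of 0.84 (SE 0.15, 95% confidence interval 0.50 to 1.18, adjusted p = 0.00231, limma). *TARBP2* was called with each library left out in turn.

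*PRKRA*, whose protein PACT is also an activator of the kinase PKR, stood at 43.0, 33.4 and 40.1 in SCR and at 44.8, 52.0 and 48.2 in DUSP6 KD. The groups did not overlap, with SCR replicate 1 just under DUSP6 KD replicate 1. The log2 fold change was 0.31 (SE 0.12, 95% confidence interval 0.05 to 0.58, adjusted p = 0.0524, limma), just short of the threshold. It was called higher by edgeR (adjusted p = 0.0328) and DESeq2 (adjusted p = 0.0210) on the recovered reads. With limma it was called after quantile normalization (adjusted p = 0.0196), without SCR replicate 1 (adjusted p = 0.0322) and without SCR replicate 3 (adjusted p = 0.0487). The *PRKRA* value is uncertain, because 47.5% of its canonical exon sequence overlaps *CHROMR* on the opposite strand. Reads from that overlap cannot be credited to either gene with certainty in counts that ignore strand. *CHROMR* itself was listed at 1.06 ± 0.0251 in SCR and 1.61 ± 0.149 in DUSP6 KD and was called higher (log2 fold change 0.34, adjusted p = 0.0270, limma). That call was lost without DUSP6 KD replicate 1 (adjusted p = 0.0738, limma) or 3 (adjusted p = 0.125, limma). It was also lost after quantile normalization (adjusted p = 0.156, limma) and with the replicate number as a block (adjusted p = 0.0543, limma).

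The GW182 genes code for the scaffolds that link Argonaute to the decay enzymes. *TNRC6A* stood at 194, 210 and 132 in SCR and at 97.7, 110 and 101 in DUSP6 KD, with SCR replicate 3 nearest to the DUSP6 KD libraries. The mean fell from 179 ± 41.3 to 103 ± 6.16 (SD, n = 3 each), with a log2 fold change of -0.76 (SE 0.16, 95% confidence interval -1.12 to -0.40, adjusted p = 0.00504, limma). *TNRC6A* was called with each library left out in turn, as were *DROSHA*, *TARBP2* and *AGO4*.

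*TNRC6B* was also lower in every DUSP6 KD library, and SCR replicate 3 was again the nearest SCR library. It stood at 161, 147 and 102 in SCR and at 90.2, 94.5 and 88.4 in DUSP6 KD. The mean fell from 137 ± 30.9 to 91.0 ± 3.14 (SD, n = 3 each), with a log2 fold change of -0.55 (SE 0.16, 95% confidence interval -0.90 to -0.20, adjusted p = 0.0181, limma). The *TNRC6B* call was kept without SCR replicate 3 and lost without any of the other 5 libraries, SCR replicates 1 and 2 and all 3 of DUSP6 KD (adjusted p from 0.0534 to 0.0590, limma).

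*TNRC6C*, the remaining GW182 gene and not among the 10, stood at 39.9, 70.1 and 37.3 in SCR and at 59.7, 72.2 and 61.0 in DUSP6 KD. SCR replicate 2 lay within the DUSP6 KD range. Its log2 fold change was 0.44 (SE 0.21, 95% confidence interval -0.05 to 0.92, adjusted p = 0.126, limma), and without SCR replicate 2 it was called higher (0.72, adjusted p = 0.00230, limma). Of its exon sequence, 13.7% overlaps *TMC6* on the opposite strand. As shares of the GW182 level per kilobase, *TNRC6A* was 63.3 ± 0.978% in SCR and 52.1 ± 0.595% in DUSP6 KD, and *TNRC6C* was 14.2 ± 3.16% and 26.5 ± 1.07% (SD, n = 3 each). Neither share overlapped between the groups (exact permutation p = 0.1 for each), while the share of *TNRC6B*, 22.6 ± 2.23% and 21.4 ± 0.803%, did. As with the Argonaute genes, these shares restate the values of the single genes. The summed GW182 level per kilobase was 33.2 ± 7.67 in SCR and 23.3 ± 1.53 in DUSP6 KD, with overlap (exact permutation p = 0.2).

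**Figure D3:**
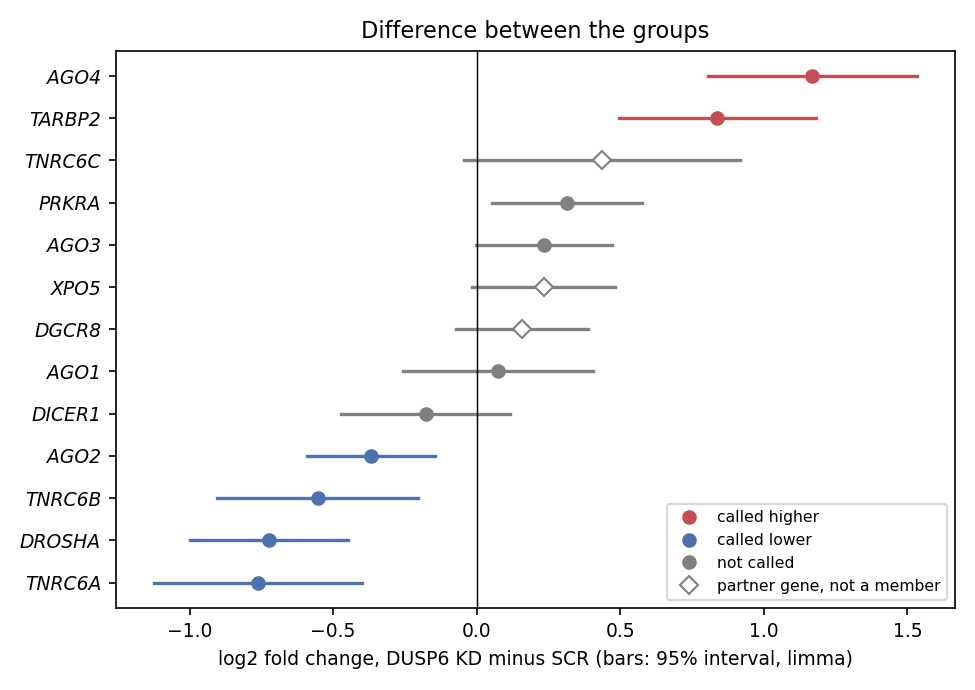
Log2 fold change (DUSP6 KD minus SCR) with its 95% confidence interval from limma for the 10 machinery genes (circles) and for the partner genes TNRC6C, DGCR8 and XPO5 (diamonds), coloured by call. The intervals of AGO4 (0.81 to 1.53) and TARBP2 (0.50 to 1.18) lie to the right of 0, and those of AGO2, TNRC6B, DROSHA and TNRC6A to the left.

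Compared per kilobase within SCR, the 10 genes spanned a wide range of levels. *DICER1* was at 25.4 ± 4.71, *AGO2* at 22.2 ± 2.40, *PRKRA* at 21.9 ± 2.76, *TNRC6A* at 21.0 ± 4.87 and *DROSHA* at 20.9 ± 3.40 (SD, n = 3), and neighbours in this order did not differ beyond their spread. *TARBP2* followed at 9.60 ± 2.12 and *TNRC6B* at 7.47 ± 1.69, with overlap between them and a gap to *DROSHA* above. *AGO1* at 4.54 ± 0.914 was apart from both neighbours, and *AGO3* at 1.57 ± 0.168 and *AGO4* at 1.26 ± 0.304 overlapped at the bottom. The place of *PRKRA* is uncertain, since 47.5% of its canonical exon sequence overlaps *CHROMR*. In DUSP6 KD, *PRKRA* was highest at 27.3 ± 2.04 per kilobase. *TARBP2* stood at 17.4 ± 1.08 there, beside *AGO2* at 17.1 ± 0.409, and *AGO4* at 2.96 ± 0.308 was above *AGO3* at 1.86 ± 0.0681.

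The SCR libraries were less alike than the DUSP6 KD libraries, and all 10 genes showed it. The coefficient of variation ran from 10.7% to 24.2% in SCR and from 2.39% to 10.4% in DUSP6 KD, and it was higher in SCR for each gene. Across the 12862 genes tested, log2 values correlated at 0.987 to 0.990 between SCR libraries and at 0.995 to 0.998 between DUSP6 KD libraries. The wider SCR spread was thus not particular to these 10 genes, and the share of all genes with it was not counted. SCR replicate 3 was the SCR library nearest to the DUSP6 KD mean for *DICER1*, *DROSHA*, *TARBP2*, *TNRC6A* and *TNRC6B*, SCR replicate 1 for *AGO1*, *AGO2* and *PRKRA*, and SCR replicate 2 for *AGO3* and *AGO4*. SCR replicate 2 was the farthest for *AGO1*, *AGO2*, *TARBP2*, *PRKRA* and *TNRC6A*. The part of this spread in the results was not tested beyond leaving out each library.

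Over the 6 libraries, the genes whose log2 values followed *AGO2* most closely were *VMP1* (Pearson r = 0.996), *BOC* (0.995) and *SAMD12* (0.995). Those nearest to *DICER1* were *RWDD1* (r = 0.997), *COQ2* (0.992) and *BABAM2* (0.988). Within the machinery, *AGO2* followed *TNRC6A* at 0.854 and *DROSHA* at 0.810, and ran against *TARBP2* at -0.925. These are descriptions over 6 libraries of 2 groups, in which any genes that differ between the groups correlate.

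The steps around the machinery were read from lists of genes. Among 16 genes of hairpin cutting and export, 1 was called higher and 4 lower (median log2 fold change -0.13). The lower share, 25%, lay at that of all genes (24.7%), and the higher share, 6.25%, was under the 19.7% of all genes. *RCC1*, which charges the export GTPase Ran, fell from 112 ± 21.2 to 33.4 ± 4.84 (log2 fold change -1.70, adjusted p = 6.46e-05, limma), though 5.92% of its exon sequence is shared with *SNHG3*. *HNRNPA2B1*, an RNA-binding protein gene, had a log2 fold change of -0.52 (adjusted p = 0.00696, limma), and *ADAR*, the editing enzyme, was the gene called higher. The count called higher in this list was 4 without SCR replicate 3 and 5 after quantile normalization.

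Of 15 genes of RISC loading, chaperones and the translin pair *TSN* and *TSNAX*, 2 were called higher and 6 lower (median -0.27). *FKBP5*, an HSP90 co-chaperone, fell from 79.5 ± 9.63 to 39.4 ± 1.25 (log2 fold change -0.99, adjusted p = 1.45e-04, limma). *CDC37*, which brings kinases to HSP90, had a log2 fold change of -0.79 (adjusted p = 2.33e-04, limma). *HSPA8*, the constitutive HSP70, had -0.59 (adjusted p = 0.0129, limma), lost without DUSP6 KD replicate 3 (adjusted p = 0.0529) and without the filter on low values (adjusted p = 0.0924). The 2 higher calls were *DNAJA1* and *TSNAX*, of which 1 call was left without DUSP6 KD replicate 1 or 2 and 0 without DUSP6 KD replicate 3. Of the *TSNAX* exon sequence, 24.2% is shared with *TSNAX-DISC1*.

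Of 18 tested RISC partners, 2 were called higher and 8 lower (median -0.22), with 5 lower without DUSP6 KD replicate 2. The higher count was 1 without SCR replicate 2 or DUSP6 KD replicate 1, and 0 without DUSP6 KD replicate 2 or 3. The translational repressor gene *PUM2* had a log2 fold change of -0.58 (adjusted p = 8.19e-04, limma). *AJUBA* (-0.56) and *LIMD1* (-0.51), LIM-domain genes whose proteins bind Argonaute, were called lower too, and 27.5% of the *LIMD1* exon sequence is shared with *LIMD1-AS1*. *MOV10*, the helicase found with Argonaute, stood at 60.5, 73.1 and 72.7 in SCR and at 56.7, 39.95 and 55.4 in DUSP6 KD. Its log2 fold change was -0.44 (SE 0.15, adjusted p = 0.0339, limma), and the call was lost without DUSP6 KD replicate 2 (adjusted p = 0.112), SCR replicate 2 (adjusted p = 0.0900) or SCR replicate 3 (adjusted p = 0.0677), all by limma. It was also lost by edgeR (adjusted p = 0.0549), and by limma without the filter on low values (adjusted p = 0.0668) or after quantile normalization (adjusted p = 0.0878).

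Downstream of GW182, 20 genes of the deadenylases were tested, of which 2 were called higher and 9 lower (median -0.06). *TOB1*, which brings the CCR4-NOT complex to mRNAs, fell from 347 ± 50.3 to 118 ± 20.9 (log2 fold change -1.55, adjusted p = 1.02e-04, limma). *CNOT9*, a subunit that GW182 proteins contact, had a log2 fold change of -1.04 (adjusted p = 4.75e-04, limma), and *PAN2*, the catalytic gene of the PAN2-PAN3 deadenylase, rose at 0.99 (adjusted p = 6.42e-05, limma). Of 22 genes of decapping and decay, 2 were called higher and 7 lower (median -0.21), led by *LSM3* (-0.58), *EDC3* (-0.54) and *LSM14A* (-0.52). Of the *EDC3* exon sequence, 9.94% is shared with *CLK3*. The lower count there was 4 without any single DUSP6 KD replicate and 11 without SCR replicate 3, and the higher count was 1 without DUSP6 KD replicate 2 or 3 and 4 without SCR replicate 3. The higher count of the deadenylases was 1 without any single DUSP6 KD replicate. Over all genes, 2306 to 2454 were called lower without a DUSP6 KD replicate and 3581 without SCR replicate 3, against 3179 with all libraries. Called higher were 1574 to 1827 and 3183, against 2540. The counts of the other lists with a DUSP6 KD replicate or SCR replicate 3 left out stand against the same numbers. Called higher were 13.3% of the loading genes, 11.1% of the RISC partners, 10% of the deadenylases and 9.09% of decapping and decay. All these shares were under the 19.7% of all genes. Against the 24.7% of all genes called lower, the deadenylases stood at 9 of 20, the RISC partners at 8 of 18 (44.4%), the loading genes at 6 of 15, decapping and decay at 7 of 22 (31.8%) and hairpin cutting and export at 4 of 16, while tailing genes and miRNA hosts each stood at 2 of 14 (14.3%).

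Of 14 tested genes that tail, trim or turn over miRNAs, 5 were called higher and 2 lower (median -0.06). The higher share, 35.7%, lay above the 19.7% of all genes, on few genes. *PNPT1*, a mitochondrial exoribonuclease gene, had a log2 fold change of 0.83 (adjusted p = 0.00316, limma), *ZSWIM8*, the adaptor of target-directed miRNA decay, 0.64 (adjusted p = 0.00614, limma), and *ERI1*, a 3′ exonuclease gene, -0.48 (adjusted p = 0.00914, limma). Of the *ZSWIM8* exon sequence, 15.2% is shared with *ZSWIM8-AS1*. The higher count was 2 without DUSP6 KD replicate 1 or 2 and 3 without DUSP6 KD replicate 3, SCR replicate 1 or SCR replicate 2. The lower count was 4 without SCR replicate 3 and 1 without DUSP6 KD replicate 1 or 3. The germline PIWI branch of the Argonaute family was barely read: 3 PIWI genes were listed and 0 passed the filter.

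**Figure D4:**
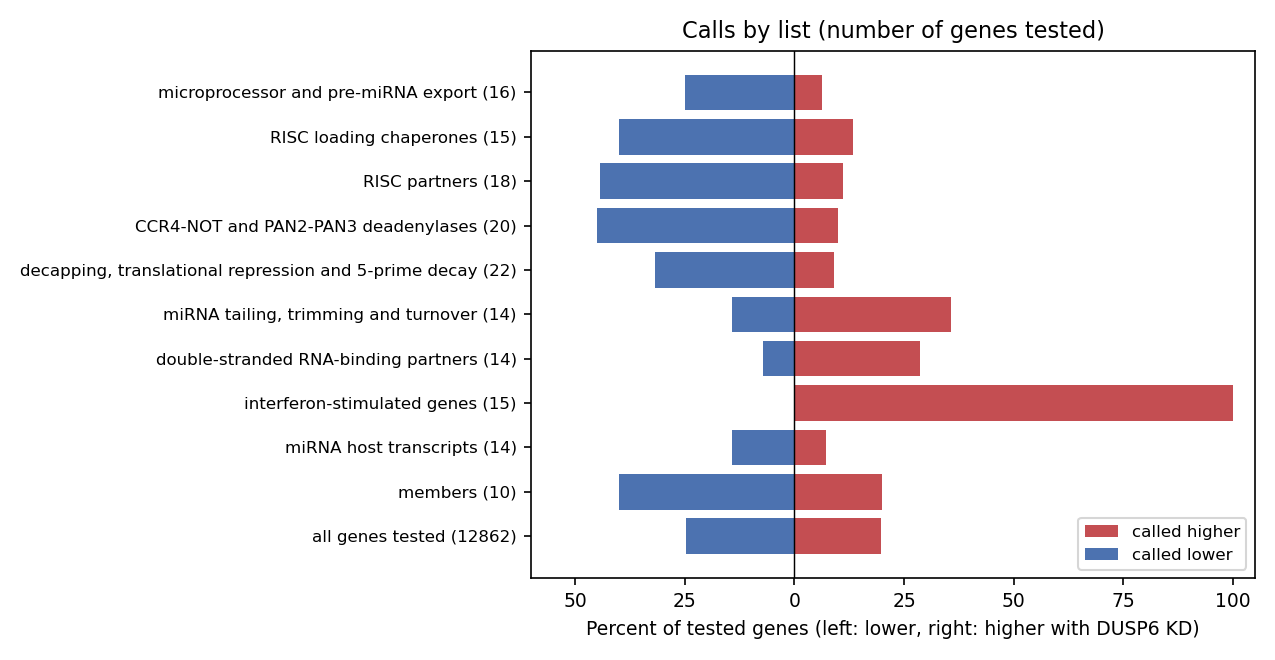
Percent of the tested genes of each list called lower (blue, left) and higher (red, right) with DUSP6 KD, with the number tested in brackets, the 10 machinery genes as members, and all 12862 genes at the bottom. The interferon-stimulated list has all 15 of its genes to the right. The loading, RISC partner, deadenylase and decapping lists and the 10 machinery genes reach past the 24.7% of all genes on the left, and the tailing, double-stranded RNA-binding and miRNA host lists do not reach it.

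Among the genes of double-stranded RNA-binding proteins, 3 rose most. *EIF2AK2*, the gene of PKR, the kinase that PACT activates and TRBP restrains, stood at 64.1, 60.8 and 53.1 in SCR and at 241, 234 and 260.1 in DUSP6 KD. Its mean rose from 59.3 ± 5.66 to 245 ± 13.7 (SD, n = 3 each), a log2 fold change of 2.03 (SE 0.10, adjusted p = 2.34e-06, limma). *ADAR* rose from 449.8 ± 36.5 to 1285 ± 30.8 (log2 fold change 1.51, adjusted p = 9.47e-06, limma) and *DHX58*, a helicase gene of the RIG-I family, had a log2 fold change of 3.13 (adjusted p = 3.15e-06, limma). Of the 14 double-stranded RNA-binding partners tested, 4 were called higher (28.6%, against 19.7% of all genes), 9 were not called and 1 was called lower (median log2 fold change -0.01), the last of these lost without any single DUSP6 KD replicate and joined by another without SCR replicate 3.

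These 3 genes are known to be induced by interferon, and the interferon-stimulated list moved with them. Its 15 tested genes of 16 were all called higher (median log2 fold change 5.49), with *IFI6* at 7.56, *IFIT1* at 7.19 and *OAS2* at 6.34. The summed value of the 16 genes was 248 to 331 in SCR and 5602 to 6768 in DUSP6 KD. SCR replicate 3 held the highest sum of the SCR libraries. The part of this response in the levels of *AGO4*, *TARBP2*, *DROSHA* and *TNRC6A* was not tested, and since it separates the groups in full, the 2 cannot be told apart.

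The promoters of the 4 genes with the largest differences are shown with that of *EIF2AK2* as a contrast. The interferon-stimulated response element (ISRE) can be looked for in them directly. The window of *EIF2AK2* was chosen because it holds an ISRE, so finding one there is not a result. Each is RefSeq sequence on GRCh38.p14, 5′ to 3′ on the gene's own strand, with 250 bases before an annotated start and 20 bases from it. *AGO4* is read from chr1:35807766-35808035 on the plus strand, *TARBP2* from chr12:53500673-53500942 on the plus strand, *DROSHA* from chr5:31532074-31532343 on the minus strand, *TNRC6A* from chr16:24729401-24729670 on the plus strand and *EIF2AK2* from chr2:37156961-37157230 on the minus strand. Capitals mark the 20 bases from the start, and in *EIF2AK2* the letters of the ISRE.
AGO4: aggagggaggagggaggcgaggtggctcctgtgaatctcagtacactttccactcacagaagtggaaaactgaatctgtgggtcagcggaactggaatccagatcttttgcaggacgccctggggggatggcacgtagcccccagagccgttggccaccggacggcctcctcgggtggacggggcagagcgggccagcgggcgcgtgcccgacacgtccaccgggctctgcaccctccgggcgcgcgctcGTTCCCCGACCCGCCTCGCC
TARBP2: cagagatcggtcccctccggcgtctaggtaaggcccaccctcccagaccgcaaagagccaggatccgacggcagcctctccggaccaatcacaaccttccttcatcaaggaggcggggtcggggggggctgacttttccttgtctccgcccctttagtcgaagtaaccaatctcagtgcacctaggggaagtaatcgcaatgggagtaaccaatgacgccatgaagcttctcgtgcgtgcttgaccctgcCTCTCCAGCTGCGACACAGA
DROSHA: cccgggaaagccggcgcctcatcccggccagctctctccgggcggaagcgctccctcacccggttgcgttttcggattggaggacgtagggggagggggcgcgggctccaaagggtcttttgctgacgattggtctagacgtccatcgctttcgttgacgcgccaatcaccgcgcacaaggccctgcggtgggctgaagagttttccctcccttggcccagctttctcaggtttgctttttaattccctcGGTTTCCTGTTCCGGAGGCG
TNRC6A: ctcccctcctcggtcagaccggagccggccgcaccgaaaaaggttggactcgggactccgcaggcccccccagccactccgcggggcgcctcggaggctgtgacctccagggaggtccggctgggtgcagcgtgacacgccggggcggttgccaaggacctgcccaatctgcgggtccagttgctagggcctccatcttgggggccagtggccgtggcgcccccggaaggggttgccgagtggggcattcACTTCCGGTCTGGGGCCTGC
EIF2AK2: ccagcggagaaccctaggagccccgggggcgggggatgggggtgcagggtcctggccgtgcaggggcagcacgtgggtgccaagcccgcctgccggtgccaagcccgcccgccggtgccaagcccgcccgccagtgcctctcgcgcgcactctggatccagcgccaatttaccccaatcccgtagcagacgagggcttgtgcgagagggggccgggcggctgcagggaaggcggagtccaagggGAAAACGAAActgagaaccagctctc

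The ISRE was searched as GAAANNGAAA on both strands in windows of 300 bases, 250 before and 50 after each start. It was present in 3.58% of 35095 windows of all genes. In the 17 windows of 9 machinery genes (*AGO2* was not searched) it was found in 0. In *EIF2AK2* it was found once, its first base 6 bases before the start, and it was the only gene to hold it of the 11 double-stranded RNA-binding partners with a window. Among the interferon-stimulated list 10 of 11 genes with a window held it. An E2F-like motif, TTTNNCGC, was found in 6.89% of all windows and in 0 of the 17. With matches this rare among all windows, 0 of 17 does not set the machinery genes apart, and several of the windows belong to the same gene. A match is a run of letters only, and its lack says nothing of more distant sites.

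Mature miRNAs, which the machinery makes and loads, were not measured in these libraries, but 33 long transcripts that host miRNA hairpins are named in the table. Of these, 14 were tested, with 1 called higher and 2 lower (median log2 fold change -0.08). Both shares, 7.14% and 14.3%, were under those of all genes (19.7% and 24.7%). *MIR9-3HG* stood at 48.7, 47.5 and 53.3 in SCR and at 23.0, 19.2 and 21.5 in DUSP6 KD, with a log2 fold change of -1.20 (adjusted p = 4.91e-05, limma). *MIR570HG* stood at 6.40, 5.81 and 7.48 in SCR and at 10.8, 10.99 and 9.93 in DUSP6 KD, with 0.62 (adjusted p = 0.00310, limma). *MIR4697HG* had -0.38 (adjusted p = 0.0433, limma), a call lost without SCR replicate 1 or 3 or DUSP6 KD replicate 2 or 3 (limma adjusted p from 0.0783 to 0.155), without the filter on low values (adjusted p = 0.0807) and by edgeR (adjusted p = 0.0654). Of the 2 lower calls, 1 was left without SCR replicate 3 or DUSP6 KD replicate 2 or 3, and without SCR replicate 3 there were 2 higher calls.

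The mature miRNAs of the 2 hosts with the firmest calls are shown from RefSeq, with the seed in capitals, and after them 2 of the seed groups found among hosts that were not called. *MIR9-3HG* holds miR-9-5p and miR-9-3p, and *MIR570HG* holds miR-570-5p and miR-570-3p, with no seed in common between them.
miR-9-5p: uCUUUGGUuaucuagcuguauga
miR-9-3p: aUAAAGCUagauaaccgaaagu
miR-570-5p: aAAGGUAAuugcaguuuuuccc
miR-570-3p: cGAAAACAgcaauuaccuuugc
let-7a-5p: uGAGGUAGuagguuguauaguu
let-7b-5p: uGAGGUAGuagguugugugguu
let-7c-5p: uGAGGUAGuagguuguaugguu
miR-4458: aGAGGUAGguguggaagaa
miR-17-5p: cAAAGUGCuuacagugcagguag
miR-20a-5p: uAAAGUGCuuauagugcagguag

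The let-7 group of let-7a-5p and let-7b-5p (host *MIRLET7BHG*), let-7c-5p (host *MIR99AHG*) and miR-4458 (host *MIR4458HG*) shares the seed GAGGUAG across 3 hosts, and miR-17-5p and miR-20a-5p share AAAGUGC within *MIR17HG*. None of these 4 hosts was called, whereas *MIR9-3HG* and *MIR570HG* were. A host level is the level of the long transcript, not of the hairpin or the mature miRNA.

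The firmness of the calls differed among the machinery genes. *AGO4*, *TARBP2*, *DROSHA* and *TNRC6A* held their call and direction in each of the 16 alternative fits, the 6 that leave out a library included. *TNRC6B* and *AGO2* lost theirs in 5 and 3 of them, and *AGO3*, *DICER1* and *PRKRA* were called in 2, 1 and 5. *AGO1* was called in 0 of them.

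**Figure D5:**
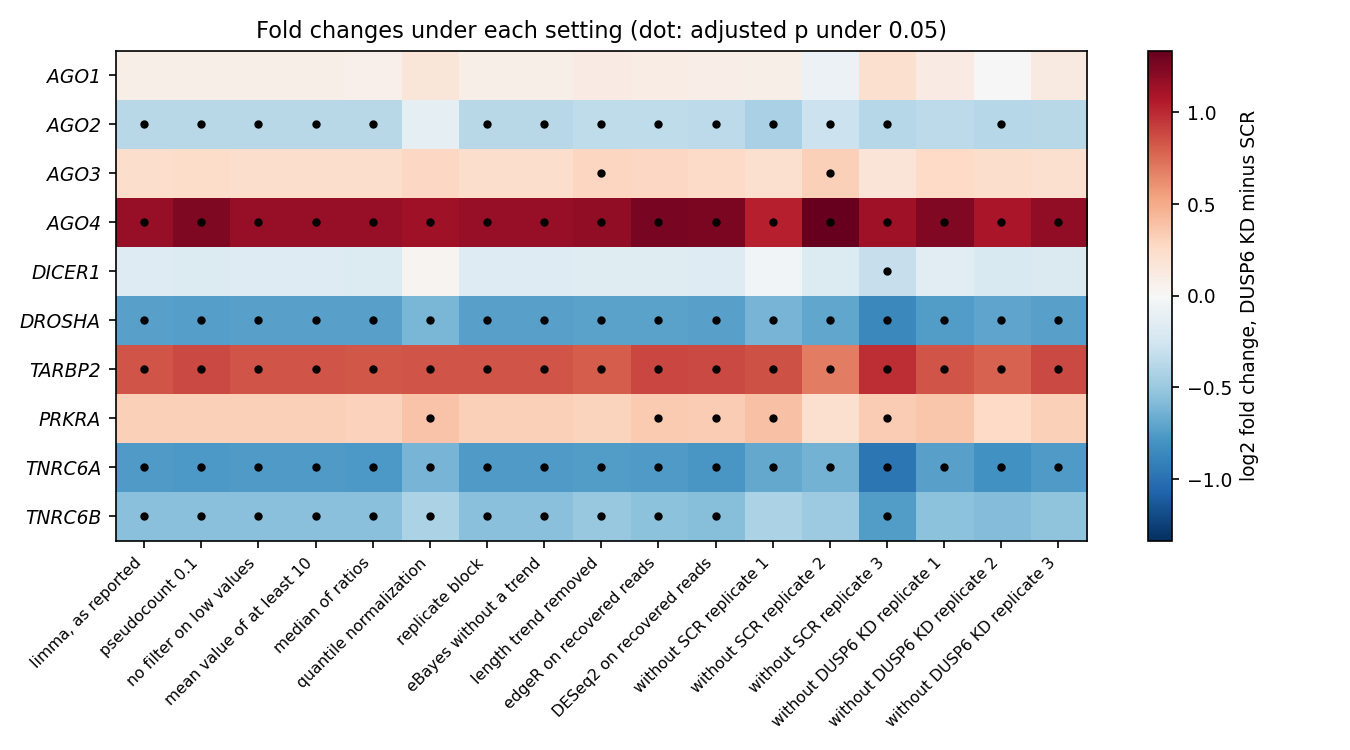
Log2 fold change (colour, DUSP6 KD minus SCR) of the 10 machinery genes under the reported limma fit and each of the 16 alternative fits, with a dot where the adjusted p was under 0.05. The rows of dots are full for AGO4, DROSHA, TARBP2 and TNRC6A, broken for AGO2 and TNRC6B, and scattered for AGO3, DICER1 and PRKRA.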

How the data were processed

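Total RNA was turned into stranded mRNA libraries with the Illumina TruSeq Stranded kit and sequenced on a NovaSeq instrument. Alignment to hg38 and counting over RefSeq gene models were done by the authors in Rsubread at its defaults, which ignore strand. The submitters' processing notes name bcl2fastq and edgeR. The deposited table holds 1 normalized signal value per gene and library, with no column left unmapped. Dividing every value by the smallest step of its library gave whole reads (100% of values within 0.01 read), and the steps matched TMM-scaled CPM of those reads, as edgeR computes it, within 3e-15.

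The values were taken as log2(value + 1). Genes with a mean of at least 1 were compared by limma 3.58.1 in R 4.3.3 (lmFit and trended eBayes). The p-values were adjusted by Benjamini-Hochberg over all 12862 genes tested, and an adjusted p under 0.05 made a call. Intervals cover 95%. The whole reads were also tested with edgeR 4.0.16 and DESeq2 1.42.0. Exact permutation tests of single values were two-sided. The fits were also run on simulated counts with the same dispersion in both groups. The SCR spread was wider here, so that run does not measure their error in these data. Levels were set per kilobase of the GENCODE canonical transcript, where an exon union of RefSeq had been planned. Of the 22807 gene IDs, 22359 matched RefSeq and 20732 had a length. Python 3.11.15 was used for summaries.

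The 10 genes and the lists were chosen with earlier results of these data known. All 10 are named, with up to 3 called genes of each list that changed most without overlap between the groups, a few direct partners, and the 3 genes nearest in pattern to *AGO2* and to *DICER1*. *DNAJA1* and *TSNAX* were named after their values were seen. The replicate numbers did not pair the libraries. One marker gene is not reported here.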

Additional observations from a re-analysis of the deposited data

How the results depend on the processing

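Of the 10 machinery genes, 2 to 3 were called higher under every alternative. The number called lower was 2 at an adjusted p under 0.01, 3 after quantile normalization and 2 to 5 when 1 library was left out, lowest without DUSP6 KD replicate 1 or 3 and highest without SCR replicate 3. Over all genes tested, the number called higher was 1639 at a mean of at least 10, where 9562 genes were tested, 1395 at an adjusted p under 0.01, and 1574 (without DUSP6 KD replicate 2) to 3183 (without SCR replicate 3) when 1 library was left out. The number called lower was 2079 at an adjusted p under 0.01. It was 2454 without DUSP6 KD replicate 1, 2306 without DUSP6 KD replicate 3 and 3581 without SCR replicate 3. These are the fits with the lowest and highest counts among the 10. Quantile normalization called 2958 higher and 2887 lower, against 2540 and 3179. The direction of *AGO1* turned when SCR replicate 2 or DUSP6 KD replicate 2 was left out (log2 fold changes of -0.0745 and -0.0038, range -0.0745 to 0.21), and that of *DICER1* turned after quantile normalization (0.0323). The cause was not tested.

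The replicate numbers are shared by the groups but did not pair the libraries: same-numbered libraries deviated from their group means with correlations of 0.00500, 0.0868 and -0.0764, and 2 libraries correlated best with their own number. With the replicate number as a block, limma called 2 machinery genes higher and 4 lower, and 2495 and 3096 genes over all. *TNRC6C* was called higher with the block (0.44, adjusted p = 0.0248).

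The lowest of the 10 genes, *AGO4*, had 489 to 1957 reads per library. Counting error and library spread were not compared.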
